A study of Homo sapiens with 12 samples.

Results

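The cytosolic ribosome is built from a small and a large subunit, each made of ribosomal RNA and a fixed set of proteins. The messenger RNAs of these proteins carry a 5′ terminal oligopyrimidine (TOP) start, a C followed by an unbroken run of C and T, and their translation is switched off when the kinase complex mTORC1 is inhibited by lack of serum growth factors or amino acids; the protein LARP1 then binds the TOP start and can keep the untranslated messages stable. Translation of these messages, rather than their amount, is the step best known to respond to serum, and RNA sequencing measures only their amount. In this study 77 ribosomal protein genes, 31 of the small and 46 of the large subunit, were examined among the 60564 genes of the deposited table, of which 12860 were tested. The genes were chosen by symbol (RPL or RPS with a number and an optional A or X, plus RPLP0, RPLP1, RPLP2 and RPSA), with an FPKM (fragments scaled to transcript length and to mapped fragments) of at least 1 in at least 3 libraries. All 77 rows that matched by symbol passed that filter. All 77 gene identifiers were found in GENCODE 29 with the same symbol and lie on 21 chromosomes.

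Total RNA of 2 established human pancreatic ductal adenocarcinoma lines, BxPC-3 and CFPAC-1 (spelled BXPC-3 and Cfpac-1 in the sample titles), was sequenced in 4 groups of 3 libraries. The groups were BxPC-3 starved of serum for 48 h to induce primary cilia (titled cilia, here induced), BxPC-3 in normal culture (control), CFPAC-1 induced, and CFPAC-1 control. The series text gives ciliated shares, without errors, of 78% for induced and 5% for control BxPC-3, and of 39% for induced and 7% for control CFPAC-1. Every induced library was both starved and ciliated, so the effects of starvation and of cilia cannot be told apart. No label says that the libraries of a group are separate cultures. P-values here reflect only how much these libraries differ, and that spread may be technical.

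Some libraries stood apart and are named here before the results. CFPAC-1 control 2 and 3 resembled each other over the 77 genes (Pearson r of log2(FPKM+1) 0.995) but correlated at only 0.806 and 0.804 with CFPAC-1 control 1, which itself correlated at 0.969 to 0.974 with the 3 induced CFPAC-1 libraries. These are correlations across genes, which are not independent replicates. The CFPAC-1 counts and leading genes are therefore given with and without control 2 and 3. BxPC-3 induced 1 was the lowest of the 6 BxPC-3 libraries for 65 of the 77 genes, and that share over all tested genes is not given here. Summed FPKM ran between 258299 and 315377 per library, and 11.6% to 34.0% of it came from mitochondrially encoded genes. Markers of duct epithelium summed to 1393 to 1715 FPKM in BxPC-3 induced, 1500 to 1803 in BxPC-3 control, 443 to 1037 in CFPAC-1 induced and 599 to 1075 in CFPAC-1 control libraries, and in each CFPAC-1 group 1 of the 6 markers was below 1 FPKM in every library. All 3 endocrine markers were listed at 0 in every library, all 4 endothelial markers stayed below 1 FPKM, and 3 acinar markers summed to 2.89 FPKM at most. The 6 fibroblast markers summed to 26.02 to 110.0 FPKM in CFPAC-1 induced and 6.31 to 37.3 in CFPAC-1 control libraries, and to 1.74 at most in BxPC-3. Of these 6, 5 were below 1 FPKM in every CFPAC-1 induced library and 3 in every CFPAC-1 control library. The 4 immune markers summed to 37.5 to 48.1 in CFPAC-1 induced and 10.6 to 13.2 in CFPAC-1 control libraries, and to 8.88 to 12.7 in BxPC-3 induced and 4.91 to 6.12 in BxPC-3 control libraries. Of these 4, 3 were below 1 FPKM in every CFPAC-1 induced library, and 2 in every library of each other group. The part of these markers in the results below was not tested.

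The starts of the genes that carry the results are shown because the TOP start is the feature that the family shares. RefSeq (GRCh38.p14) had a promoter entry for 62 of the 77 genes, and 46 of these (74.2%) had a start with a C followed by at least 4 further C or T, read on the transcript's strand. The same was true of 5.14% of all 27305 genes with an entry. Where a gene had several entries, the one with the longest run stands for it, here and below, in every set of genes. Counted by entry, 46 of 77 entries of ribosomal protein genes had such a start, as did 4.07% of all 35116 entries. Among other genes of translation, 15 of 16 translation factors listed as TOP genes, 3 of 11 host genes of small nucleolar RNAs listed as TOP genes, 6 of 69 mitochondrial ribosomal proteins and 0 of 11 regulators of TOP mRNA translation had such a start. The median run was 7 bases. Each line gives 10 bases before the annotated start and 20 from it, 5′ to 3′, with the pyrimidine run from the start in capitals.
RPL13, chr16:89560672-89560701, plus strand: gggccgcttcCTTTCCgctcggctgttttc
RPL13A, chr19:49487598-49487627, plus strand: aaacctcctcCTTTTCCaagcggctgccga
RPL12, chr9:127451387-127451416, minus strand: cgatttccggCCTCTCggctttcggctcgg
RPL9, chr4:39458903-39458932, minus strand: taatgacgacagacgttctttctttgctgc
RPLP0, chr12:120201092-120201121, minus strand: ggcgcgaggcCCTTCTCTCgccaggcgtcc
RPS6, chr9:19380217-19380246, minus strand: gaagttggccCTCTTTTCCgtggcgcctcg
RPS16, chr19:39435930-39435959, minus strand: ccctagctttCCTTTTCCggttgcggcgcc
RPS7, chr2:3575250-3575279, plus strand: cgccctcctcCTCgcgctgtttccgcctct
RPS4X, chrX:72277229-72277258, minus strand: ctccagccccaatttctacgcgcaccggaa
EEF2, chr19:3985444-3985473, minus strand: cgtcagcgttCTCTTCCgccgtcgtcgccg
LARP1, chr5:154682969-154682998, plus strand: ctccgccgccagaggctgagtcatcgctgc
The runs of RPL13, RPL13A, RPLP0, RPS6, RPS16 and the elongation factor gene EEF2 differ in length and letters. Each opens with C only because a run was defined that way. RPL9 and RPS4X had no such run at their annotated start and RPS7 had only 3 bases of one. No run says only that these letters are not at that annotated start. LARP1 itself has none.

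Ribosomal protein genes together made up 6.12%, 8.20% and 8.07% of summed FPKM in BxPC-3 induced libraries 1 to 3, against 6.52%, 7.70% and 7.44% in BxPC-3 control libraries. The BxPC-3 groups overlapped. In CFPAC-1 the share was 10.4%, 8.74% and 8.22% in induced libraries, against 4.93%, 7.16% and 7.07% in control libraries, so that every induced library lay above every control library. The mean was 9.11% ± 1.13 in CFPAC-1 induced and 6.39% ± 1.26 in CFPAC-1 control libraries (SD, n = 3 each), a difference of 2.73 percentage points (two-sided exact permutation test p = 0.1, the smallest that 3 against 3 allows). In BxPC-3 it was 7.46% ± 1.16 in induced and 7.22% ± 0.619 in control libraries (SD, n = 3 each), a difference of 0.242 points (exact p = 0.7). Against CFPAC-1 control 1 alone the CFPAC-1 difference was 4.18 points. FPKM values are relative, and the mitochondrially encoded share moved alongside. It was 22.3%, 18.7% and 18.6% in BxPC-3 induced, 28.8%, 24.6% and 25.9% in BxPC-3 control, 11.6%, 21.2% and 22.8% in CFPAC-1 induced and 34.0%, 19.9% and 19.9% in CFPAC-1 control libraries. With those genes left out of the sum, the difference was 2.75 points in CFPAC-1 (exact p = 0.1) and −0.514 points in BxPC-3 (exact p = 0.6). In bulk RNA, fewer cells of a type and less RNA per cell cannot be told apart.

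**Figure D1:**
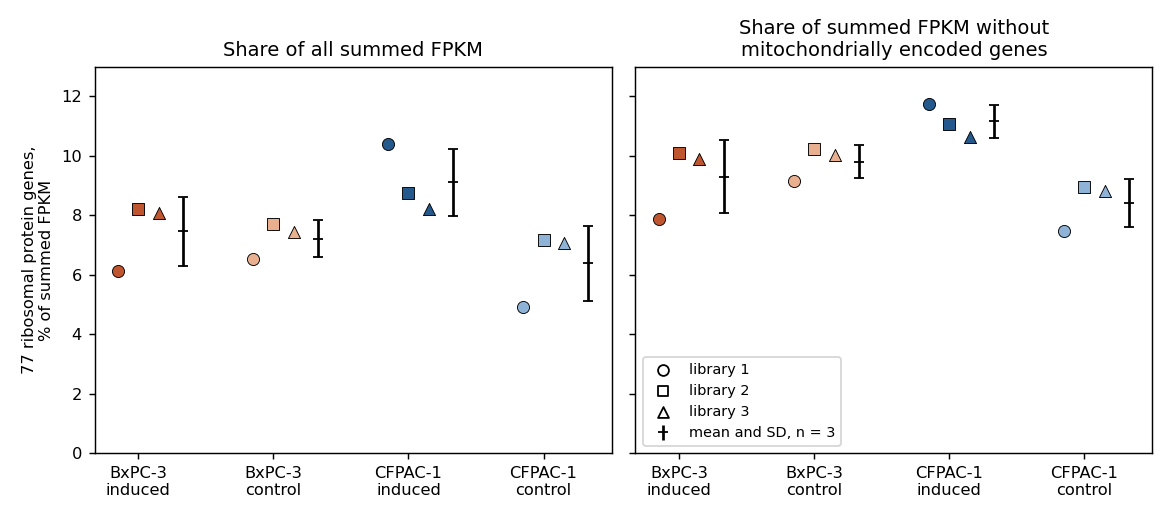
Share of summed FPKM (percent, vertical axis) held by the 77 ribosomal protein genes in each of the 12 libraries, by group, with the mean and SD of 3 libraries. The 3 CFPAC-1 induced libraries lie between 8.22% and 10.4%, above all CFPAC-1 control libraries, while the BxPC-3 groups overlap.

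The FPKM of the genes, a level per length, ranged widely. Among the highest mean levels over all groups were those of RPS2, RPL13A, RPS12 and RPS18, and the lowest belonged to RPL36A, RPL34, RPS7, RPL14 and RPS29. RPS2, which lines the mRNA entry channel, averaged 777.8 ± 41.8 FPKM in BxPC-3 induced, 881.5 ± 105 in BxPC-3 control, 1425 ± 194 in CFPAC-1 induced and 854.6 ± 296 in CFPAC-1 control libraries (SD, n = 3 each). RPS29, a zinc-binding protein near the mRNA exit and a gene mutated in Diamond-Blackfan anaemia, had 15.4, 46.4 and 43.4 FPKM in BxPC-3 induced, 27.8, 32.1 and 32.98 in BxPC-3 control, 37.4, 36.8 and 27.3 in CFPAC-1 induced and 18.5, 17.0 and 15.6 in CFPAC-1 control libraries. RPL41, which encodes the shortest ribosomal protein (75 coding bases), ranked at 7 with 504.8, 746.7 and 758.7 FPKM in BxPC-3 induced and 628.4, 759.7 and 742.2 in BxPC-3 control libraries. Over the 77 genes the mean log2 level correlated at Pearson r 0.288 with coding length (Spearman rho 0.323), a description across genes that share libraries. Ribosomal protein genes have many processed copies, and no source used here states the strand setting or how reads with several matches were counted. The table lists 951 pseudogenes named after members, 99 of which were tested, and their FPKM summed to 24.8% to 31.97% of the members' own sum. In 7 cases a copy exceeded its parent on average, as RPL41P1 did with 1612 FPKM against 699 for RPL41, and RPL9P9 with 477 against 164 for RPL9. The levels of such parents are therefore uncertain.

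In CFPAC-1, 31 of the 77 genes rose in induced libraries and 0 fell (limma on log2(FPKM+1), Benjamini-Hochberg adjusted p under 0.05 over all 12860 genes). Of all tested genes 7.85% rose and 8.77% fell in that comparison. The log2 change was positive for 73 of the 77, with a median of 0.62 against −0.09 over all tested genes, and 60 of the 77 had every induced library above every control library, as did 14% of all tested genes; 0 had every induced library below, as 17.6% of all tested genes did. Of the small subunit 12 of 31 rose (median 0.52) and of the large subunit 19 of 46 (median 0.67), against 0 of 31 (median 0.80) and 3 of 46 (median 0.85) without control 2 and 3. Without control 2 and 3, the log2 change from control 1 was positive for 44.6% of all tested genes, with a median of −0.05. It was positive for all 77 ribosomal protein genes, with a median of 0.83 and an SD across genes of 0.23. Their median was 0.65 when values were also rescaled without mitochondrially encoded genes. With a single control library only 3 of them passed, RPL13A (log2 change 1.07, limma adjusted p = 0.0436), RPL12 (1.10, adjusted p = 0.0399) and RPL28 (1.10, adjusted p = 0.0451), where 1.06% of all tested genes rose and 0.669% fell. With CFPAC-1 also fitted alone, the median change against control 1 was again 0.83. Leaving out control 2, control 3, induced 2 or induced 3 alone left 8, 8, 10 and 17 genes that rose, and fitting CFPAC-1 alone left 12. Each induced library lay above control 1 for 76 of the 77 genes, as for 27.2% of all tested genes. Against control 2 and 3 alone, 67 of the 77 changes were positive (44.9% of all tested genes), with a median of 0.50 and a wider SD of 0.65. Rescaling without mitochondrially encoded genes shifted the median of all tested genes to −0.24, and the members' median was then 0.50, with 24 genes up and 0 down. Over all tested genes that rescaling turned 1010 up and 1128 down into 783 up and 1660 down.

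With all libraries the largest change among genes that passed was that of RPL13, a large-subunit protein on the solvent side. It had 484.4, 494.4 and 434.8 FPKM in CFPAC-1 induced libraries, against 221.9, 106.7 and 101.1 in CFPAC-1 control libraries. All induced libraries were higher, and control 1 lay between them and the other controls. Its log2 change was 1.81 ± 0.27 (SE; limma adjusted p = 0.00314). Without control 2 and 3 it was 1.08 and did not pass (limma adjusted p = 0.0579), and RPS27 then had the highest value (1.23). RPL9, of the large subunit near the site where elongation factors bind, had 290.2, 301.3 and 288.0 FPKM in induced and 161.8, 90.1 and 90.4 in control libraries, a log2 change of 1.41 ± 0.26 (limma adjusted p = 0.00761). RPL9 showed the same order, with control 1 highest of the controls, and without control 2 and 3 the change was 0.85 and did not pass (limma adjusted p = 0.168). RPL13A, which also acts outside the ribosome in translational silencing of inflammatory messages, had 1079, 1016 and 946.1 FPKM in induced and 480.5, 473.0 and 473.0 in control libraries. The 3 RPL13A controls lay close together, and the log2 change was 1.09 ± 0.15 (limma adjusted p = 0.00225). Of the 10 members with the largest changes that passed, RPL13A alone also passed without control 2 and 3.

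Genes whose free proteins bind MDM2, the E3 ligase of p53, were among those that rose. RPL5, which carries 5S rRNA into the large subunit together with RPL11, had 275.8, 264.0 and 251.7 FPKM in CFPAC-1 induced and 129.1, 121.1 and 124.2 in CFPAC-1 control libraries, again with all 3 controls close together (log2 change 1.07 ± 0.20, limma adjusted p = 0.00839). RPL11 had 356.0, 343.0 and 338.1 in induced and 186.8, 260.5 and 259.8 in control libraries, and did not pass (log2 change 0.57, adjusted p = 0.0959). RPL23 averaged 138.1 ± 4.57 FPKM in induced and 62.7 ± 3.10 in control libraries (SD, n = 3 each), with a log2 change of 1.13 (limma adjusted p = 0.009). In all, 6 of 8 listed MDM2-binding members rose and 0 fell (median 0.95). Of 19 members listed as Diamond-Blackfan anaemia genes 7 rose and 0 fell (median 0.67). In the whole family 31 of 77 rose (median 0.62), as did 7.85% of all tested genes. Both lists are parts of that family, and neither was tested against it. Without control 2 and 3 the family median was 0.83. Leaving out control 2 and 3, limma called 0 of either list, with 7 of the 8 (median 0.96) and 13 of the 19 (median 0.82) at an unadjusted p under 0.05. RPS19, the best known of these, had a log2 change of 0.44 (adjusted p = 0.247) and RPS26 one of 0.62 (adjusted p = 0.0587), so neither passed.

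Small-subunit genes that rose included RPS27, a zinc-finger protein, with 713.7, 633.8 and 599.7 FPKM in CFPAC-1 induced and 276.4, 300.2 and 295.6 in CFPAC-1 control libraries (log2 change 1.15 ± 0.23, limma adjusted p = 0.00943). RPS3, at the mRNA entry channel, averaged 562.8 ± 67.6 in induced and 280.1 ± 30.1 in control libraries (SD, n = 3 each; log2 change 1.00, limma adjusted p = 0.0117). RPS7 averaged 150.1 ± 15.2 in induced and 81.1 ± 13.3 in control libraries (log2 change 0.89, adjusted p = 0.0247). The other large-subunit genes among the 10 largest changes were RPL7A (log2 change 1.03), RPL30 (0.97) and RPL8 (0.96), with 0.61, 0.91 and 0.64 without control 2 and 3. RPL41 also passed (0.78, limma adjusted p = 0.0192). RPS6, the protein phosphorylated by the S6 kinases downstream of mTORC1, did not pass. It had 257.1, 305.1 and 303.4 FPKM in induced and 142.4, 287.1 and 306.7 in control libraries, so only control 1 lay apart (log2 change 0.31, adjusted p = 0.438; 1.01 against control 1 alone, adjusted p = 0.0718). RPSA (0.38), RPL22 (0.47), RPL39 (0.48), RPL36A (0.35), RPS27A (0.40, fused to ubiquitin) and RPS4X (0.26) did not pass either.

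Of the 3 stalk proteins of the large subunit, which recruit the GTPase translation factors, 1 rose with all libraries and 0 without control 2 and 3. RPLP0, the stalk base, had 487.0, 511.0 and 431.4 FPKM in CFPAC-1 induced and 355.2, 194.9 and 224.9 in CFPAC-1 control libraries (log2 change 0.93, limma adjusted p = 0.0194). RPLP1 had 364.3, 426.8 and 371.3 in induced and 226.5, 294.6 and 269.3 in control libraries without passing (0.56, adjusted p = 0.0549). RPLP2 had 355.7, 307.3 and 279.5 in induced and 200.7, 483.2 and 485.9 in control libraries, below control 2 and 3 and above control 1 (log2 change −0.21, adjusted p = 0.677). Without control 2 and 3 the changes were 0.42 for RPLP0 (limma adjusted p = 0.359), 0.77 for RPLP1 and 0.64 for RPLP2. Whether the 3 stalk genes differ from each other was not tested.

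**Figure D2:**
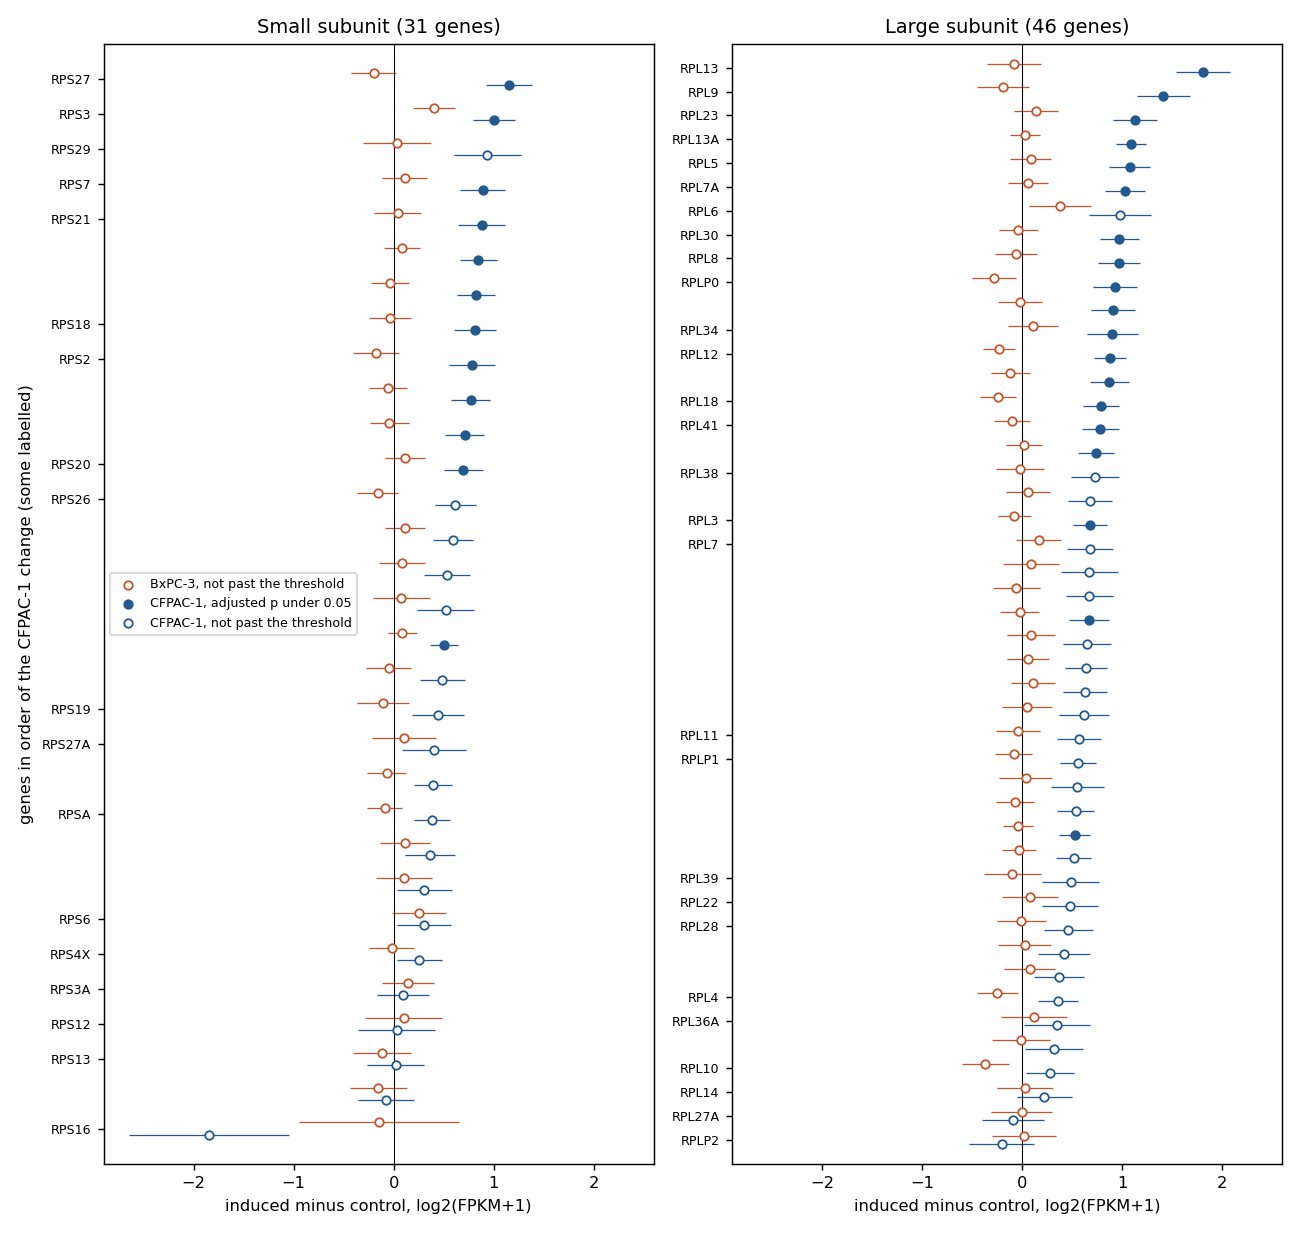
Log2 change of FPKM+1, induced minus control, with its standard error, for the 31 small-subunit (left) and 46 large-subunit (right) genes, ordered by their CFPAC-1 change, BxPC-3 above CFPAC-1; some genes are labelled, and filled points passed an adjusted p of 0.05. In CFPAC-1, 31 points are filled, all above 0, and RPS16 lies far below the rest with a wide error; in BxPC-3 no point is filled.

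RPS16, whose protein reaches towards the peptidyl site of the small subunit, was the extreme member. It had 269.7, 225.8 and 204.0 FPKM in CFPAC-1 induced libraries, against 137.4, 2023 and 2077 in CFPAC-1 control libraries. Control 2 and 3 thus exceeded every other library many times over. In the BxPC-3 libraries it had 177.3, 278.0 and 292.7 FPKM when induced and 239.0, 290.2 and 285.0 in control. The log2 change in CFPAC-1 was −1.84 ± 0.80 (limma adjusted p = 0.122) with all libraries and 0.75 without control 2 and 3. RPS16 ranked at 1 among the members in control 2 and 3 and at 46 in control 1, and made up 10.2% and 10.6% of the members' summed FPKM there, against 0.805% to 1.30% in the other 10 libraries. The ratio of small- to large-subunit summed FPKM was 1.12 and 1.11 in these 2 libraries and 0.776 to 0.842 in the others. Many neighbours of RPS16 on chromosome 19 were also higher in these libraries. Of the 40 other tested genes within 1000000 bases of it, 29 were at least 1 log2 unit higher in control 2 and 3 than in control 1, against 11.5% of all tested genes, and their median difference was 1.84 against 0.006 over all tested genes. The proteasome gene PSMC4 had 43.7, 34.1 and 31.9 FPKM in CFPAC-1 induced and 51.5, 705 and 700.3 in CFPAC-1 control libraries. The kinase gene AKT2 had 4.48, 3.99 and 4.19 in induced and 4.63, 80.2 and 80.0 in control libraries. A paralog outside that region, RPL39L, was listed at 0 in all 3 CFPAC-1 induced libraries and in control 1, and had 14.5 and 17.3 FPKM in control 2 and 3 and 14.6 to 19.8 in the BxPC-3 libraries. What sets CFPAC-1 control 2 and 3 apart was not tested.

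**Figure D3:**
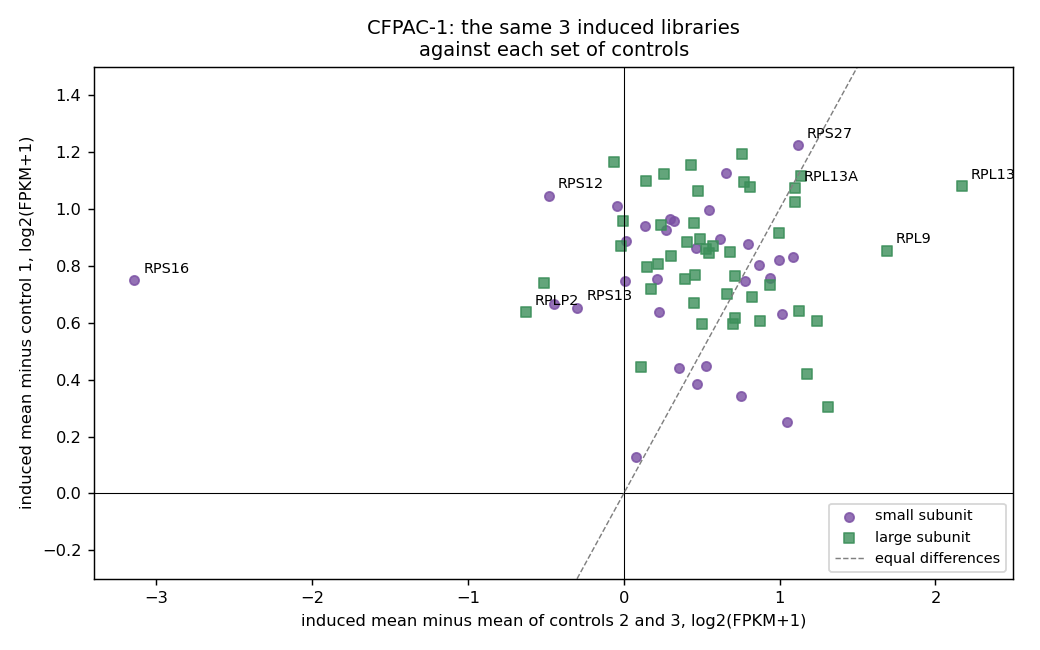
Each point is a ribosomal protein gene of CFPAC-1, with its mean log2(FPKM+1) over the induced libraries minus control 1 on one axis and minus the mean of control 2 and 3 on the other. All 77 genes are above 0 against control 1, with an SD of 0.23. Against control 2 and 3 they spread with an SD of 0.65 and 10 lie below 0, RPS16 at the far end. Of all tested genes, not drawn, 44.6% are above 0 against control 1 and 44.9% against control 2 and 3.

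Other members with low log2 changes in CFPAC-1 followed the same split by control library. RPL27A had 97.2, 100.3 and 92.4 FPKM in induced and 57.5, 137.8 and 138.1 in control libraries. RPS12, a small-subunit protein on the head, had 729.0, 740.5 and 681.6 in induced and 346.4, 1035 and 965.5 in control libraries. For these genes the induced libraries lay above control 1 and below control 2 and 3, as they also did for RPS13 with 252.6, 198.5 and 207.4 in induced and 138.4, 268.1 and 268.8 in control libraries. The log2 changes over all libraries were −0.09 for RPL27A, 0.03 for RPS12 and 0.02 for RPS13, and none of the 3 passed. Control 1 was the lowest of the 6 CFPAC-1 libraries for 50 of the 77 genes, and that share over all tested genes is not given here.

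In BxPC-3 no ribosomal protein gene passed in either direction (limma, 0 of 77), and 0 of the 77 had an unadjusted p under 0.05. With libraries 2 and 3 only, 11 passed. With all libraries 0.295% of all tested genes rose and 0.0389% fell, so 0 of 77 lies near the share of all tested genes. The median log2 change was −0.01 against 0.06 over all tested genes, 37 of the 77 were positive, and the SD across genes was 0.13, against 0.44 in CFPAC-1. The changes ran between −0.37 and 0.40. RPL10, which is placed late in large-subunit assembly, had 276.3, 341.5 and 339.1 FPKM in BxPC-3 induced and 363.1, 445.3 and 427.3 in BxPC-3 control libraries (log2 change −0.37, adjusted p = 0.747). RPLP0 had 287.6, 335.4 and 337.3 in induced and 341.6, 424.7 and 403.9 in control libraries (−0.28, adjusted p = 0.812). These were the only 2 members with every induced library below every control library (4.84% of all tested genes), and 0 members had every induced library above (12.4% of all tested genes). The next lowest were RPL4 (−0.25), RPL18 (−0.24), RPL12 (−0.23) and RPS27 (−0.20). The highest were RPS3 (0.40), RPL6 (0.38), RPS6 (0.25), RPL7 (0.16), RPS3A (0.15) and RPL23 (0.13). RPS3 had 224.6, 317.6 and 235.5 FPKM in induced and 248.4, 176.9 and 165.2 in control libraries, which overlap.

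The BxPC-3 median near 0 was made of unlike libraries. Induced 1 minus control 1 was negative for 67 of the 77 genes (median −0.27), while the mean of induced 2 and 3 minus that of control 2 and 3 was positive for 65 (median 0.11), and 57 genes had opposite signs in these 2 sets. Induced 2 and 3 both lay above control 2 and 3 for 43 members, and for 41.8% of all tested genes. The gap between induced 1 and the other induced libraries varied with coding length. Induced 1 minus induced 2 and 3 had a median of −0.61 and correlated with coding bases at Pearson r 0.57 and Spearman rho 0.59 over the 77 genes, which share these libraries. It was −1.48 for RPS29 (168 coding bases), −0.997 for RPL38 (210), −0.91 for RPL39 (153) and −0.90 for RPS21 (249), near the median for the shortest, RPL41 (−0.58, 75 coding bases), and −0.29 for RPL4 (1281), −0.35 for RPL3 (1209) and −0.22 for RPLP0 (951). In the same comparison within CFPAC-1 induced libraries r was −0.12 and the median was 0.03. The part of library quality was not tested.

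**Figure D4:**
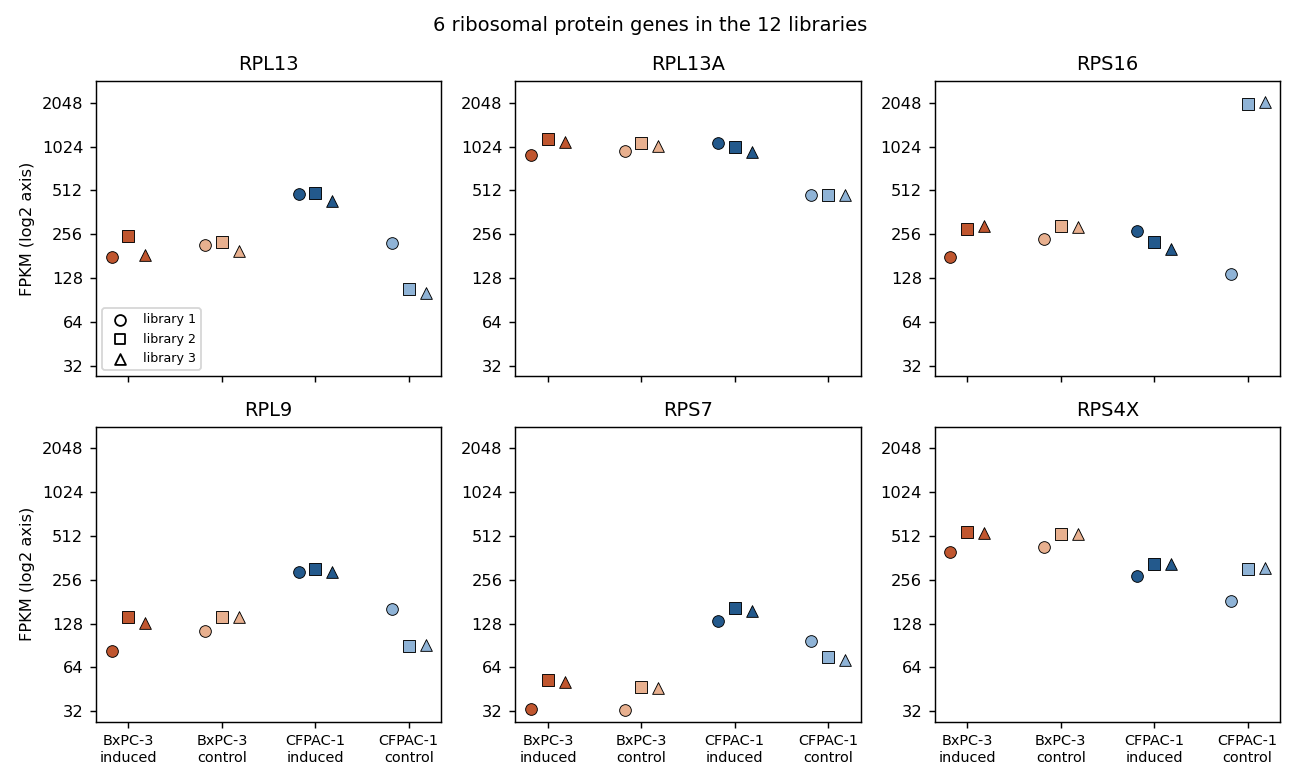
FPKM on a log axis of 6 ribosomal protein genes in each of the 12 libraries by group. RPL13, RPL13A and RPL9 are higher in CFPAC-1 induced than in CFPAC-1 control libraries, RPS16 is at 2023 and 2077 FPKM in CFPAC-1 control 2 and 3, RPS7 is lower and RPS4X is higher in BxPC-3 than in CFPAC-1 libraries.

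The difference between the lines in their response was tested as the BxPC-3 change minus the CFPAC-1 change. It was negative for all but 5 members, with a median of −0.60 against 0.16 over all tested genes, and 4 members passed, all lower. Of all tested genes 1.11% passed lower and 1.34% higher. They were RPL13 (−1.89 ± 0.38, limma adjusted p = 0.0352), RPL9 (−1.60 ± 0.37, adjusted p = 0.0473, but 0.0675 and not passing with the replicate number as a block), RPL12 (−1.11 ± 0.23, adjusted p = 0.0369) and RPL13A (−1.06 ± 0.21, adjusted p = 0.0344). RPL12, a protein at the stalk base, had 337.3, 436.8 and 389.5 FPKM in BxPC-3 induced and 436.3, 481.5 and 442.1 in BxPC-3 control libraries, and 616.2, 606.0 and 560.5 in CFPAC-1 induced and 277.4, 349.7 and 346.0 in CFPAC-1 control libraries. An unadjusted p under 0.05 was reached by 33 of the 77. The share of all tested genes at that cut is not given here for any fit. RPS27 (−1.35, adjusted p = 0.0529) and RPLP0 (−1.21, adjusted p = 0.0639) were next and did not pass. Without CFPAC-1 control 2 and 3 limma called 0 members, with 42 at an unadjusted p under 0.05 and a median of −0.81, and of all tested genes 0.249% passed lower and 0.179% higher. The calls also ended, with 0 members passing, after rescaling without mitochondrially encoded genes (median −0.53 against 0.27 over all tested genes), after quantile normalization (median −0.40) and with a pseudocount of 0.1 (median −0.60). Leaving out any single library other than BxPC-3 induced 1 moved the count by over 1.5 times, to between 0 and 22 members, the highest without CFPAC-1 control 1.

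Between the lines, the order of the family depended on the gene. Among induced libraries 21 members were lower and 1 higher in BxPC-3 than in CFPAC-1, against 14.8% of all tested genes lower and 21.4% higher (median −0.30 against 0.12). Without CFPAC-1 induced 2, 14 members passed. RPS7, a small-subunit assembly protein, had 33.3, 52.7 and 50.4 FPKM in BxPC-3 induced and 133.1, 162.4 and 154.9 in CFPAC-1 induced libraries, which do not overlap (log2 difference −1.73 ± 0.22, limma adjusted p = 0.000163). RPS27 (−1.49), RPL30 (−1.45), RPL9 (−1.34), RPL13 (−1.21), RPL8 (−1.16), RPS3 (−1.13), RPL38 (−0.93), RPS2 (−0.87) and RPS18 (−0.79) were also lower in BxPC-3. The member that was higher was RPS4X, with 399.4, 542.8 and 533.3 FPKM in BxPC-3 induced and 272.1, 330.7 and 327.1 in CFPAC-1 induced libraries (0.66 ± 0.23, limma adjusted p = 0.0419). In 34 members every BxPC-3 induced library was below every CFPAC-1 induced library (22.4% of all tested genes) and in 4 every one was above (32.1%).

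Among control libraries 14 members were higher and 1 lower in BxPC-3, against 13.1% of all tested genes in each direction (median 0.27 against −0.07). RPL18, of the large subunit, had 259.6, 320.1 and 290.9 FPKM in BxPC-3 control and 125.8, 104.4 and 104.2 in CFPAC-1 control libraries (log2 difference 1.37 ± 0.18, limma adjusted p = 0.000209). RPL5 (1.17), RPL13A (1.11), RPS19 (1.10), RPLP1 (1.02), RPL28 (1.00), RPS4X (0.93) and RPL39 (0.88) were also higher in BxPC-3. RPL39 failed in 9 of the 12 fits that left out 1 library. RPS19 did not pass without CFPAC-1 control 2 and 3 (1.05, limma adjusted p = 0.0538), and RPL28 was then 1.64. RPS7 was the lower one, with 32.6, 46.7 and 45.9 FPKM in BxPC-3 control and 96.3, 75.3 and 71.6 in CFPAC-1 control libraries (−0.95 ± 0.22, limma adjusted p = 0.00917). Groups did not overlap in 29 members higher (19.8% of all tested genes) and 6 lower (22.5%) in BxPC-3. Without CFPAC-1 control 2 and 3, 19 members were higher and 1 lower (13.8% and 13.7% of all tested genes), with a median of 0.48. RPS7 and RPS4X passed in the same direction in both culture states with all libraries. With each of the 12 libraries left out in turn RPS7 passed every time in both states, and RPS4X passed every time among control libraries but failed in 7 of the 12 fits among induced libraries. The lowest values that did not pass among control libraries were those of RPS16 (−1.62), RPS3A (−0.68), RPS3 (−0.52), RPL30 (−0.44) and RPS27A (−0.40). Those of RPS19 (0.55), RPS12 (0.54) and RPL28 (0.53) were the highest that did not pass among induced libraries.

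The line difference was also read by chromosome, as a description. Of the 21 chromosomes with members only X, 8 and 19 are given, so no pattern can be called particular to them. The 4 members on chromosome X (RPS4X, RPL10, RPL39 and RPL36A) all had positive differences, with medians of 0.35 among induced and 0.87 among control libraries, where the other tested genes of that chromosome had medians of 0.54 and 0.07. RPS4X alone of them passed among induced libraries (21.4% of all tested genes passed higher), and all but RPL36A among control libraries (13.1%). Without CFPAC-1 control 2 and 3 the control median was 1.43, against 0.45 for the other genes there. The 4 members on chromosome 8 (RPL7, RPL8, RPL30 and RPS20) all had negative differences, with medians of −0.96 among induced and −0.17 among control libraries, against −0.38 and −0.28 for the other tested genes there. All 4 passed among induced libraries (14.8% of all tested genes passed lower) and 0 among control libraries (13.1%). Without CFPAC-1 control 2 and 3, 2 of these 4 were positive among control libraries. The 12 members on chromosome 19 had medians of 0.06 among induced and 0.54 among control libraries (1.01 without CFPAC-1 control 2 and 3). Medians of the other tested genes of chromosome 19 are not given here. DNA copy number was not analysed here.

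**Figure D5:**
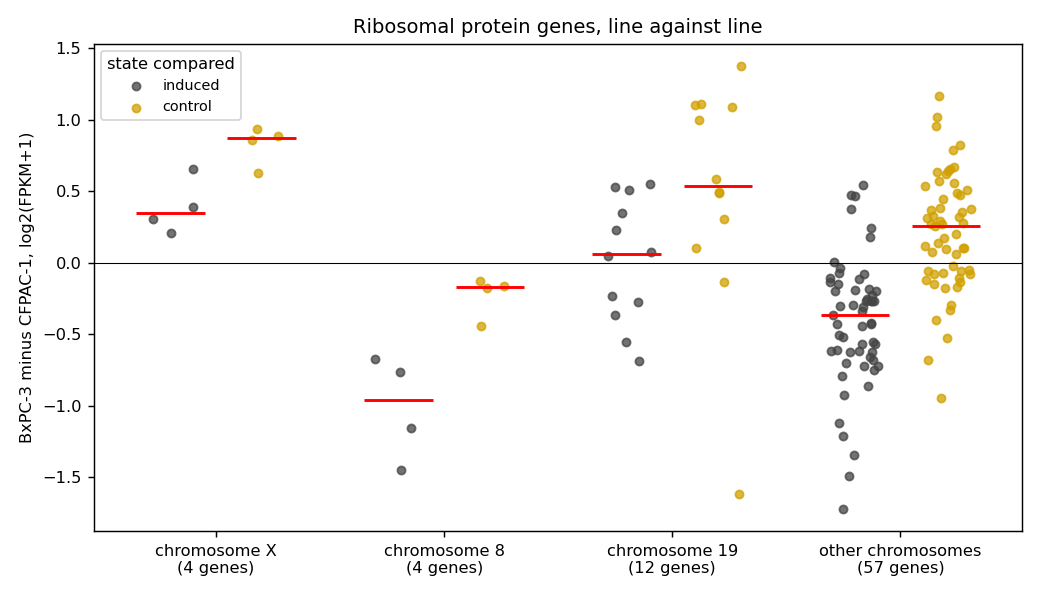
Log2 difference BxPC-3 minus CFPAC-1 of each ribosomal protein gene among induced and among control libraries, grouped by chromosome X, 8, 19 and all others; bars are medians. The 4 genes of chromosome X lie above 0 and the 4 of chromosome 8 below 0 in both states.

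Other genes listed with the TOP messages or the ribosome were set beside the family; of all tested genes 7.85% rose and 8.77% fell in CFPAC-1, as above. Of 22 tested translation factors listed as TOP genes, 8 rose and 0 fell in CFPAC-1 (median log2 change 0.48) and in BxPC-3 0 of 22 passed or had an unadjusted p under 0.05. TPT1, the translationally controlled tumour protein, had 160.3, 163.4 and 151.3 FPKM in CFPAC-1 induced and 47.1, 46.1 and 51.4 in CFPAC-1 control libraries (log2 change 1.70 ± 0.19, limma adjusted p = 0.000776). EIF4A2 (1.26), EEF2 (1.16) and EEF1G (1.05) followed, and EEF2, whose start is printed above, averaged 1349 ± 152 FPKM in induced and 604.2 ± 74.2 in control libraries (SD, n = 3 each). EEF1A1 had 1339, 1102 and 1215 FPKM in induced and 598.3, 2497 and 2562 in control libraries and did not pass (log2 change −0.37). Without control 2 and 3 all 22 changes were positive (median 0.64) and TPT1 alone passed. Among 12 tested host genes of small nucleolar RNAs listed as TOP genes, 6 rose and 0 fell in CFPAC-1 (median 0.94). Of the 11 listed host genes with a RefSeq entry 3 had the TOP start counted above, and GAS5, SNHG7 and SNHG8 did not. GAS5 had 77.3, 53.6 and 51.6 FPKM in CFPAC-1 induced and 14.3, 8.59 and 8.73 in CFPAC-1 control libraries (log2 change 2.43), and ZFAS1 had 56.0, 34.1 and 31.9 in induced and 10.6, 10.4 and 10.7 in control libraries (1.80). Both passed without control 2 and 3 as well, with changes of 1.99 and 1.80. SNHG7 (1.70) and SNHG8 (1.36) passed with all libraries only. In BxPC-3 0 of 12 passed or had an unadjusted p under 0.05.

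Mitochondrial ribosomal proteins, which build a separate ribosome and mostly lack a TOP start, included 11 of 78 that fell and 0 that rose in CFPAC-1 (median −0.38), where 8.77% of all tested genes fell. The largest falls were those of MRPS12 (−1.83), MRPL39 (−1.65), MRPL30 (−1.51) and MRPL18 (−1.30). With control 2 and 3 left out, limma called 0 of the 78, with 11 at an unadjusted p under 0.05 (median −0.29). In BxPC-3 it called 0 of the 78, with 2 at an unadjusted p under 0.05 and 67 changes positive (median 0.14). Of 13 mitochondrially encoded mRNAs 2 fell and 0 rose in CFPAC-1 (median −0.73), the complex I genes MT-ND5 (−0.88) and MT-ND6 (−0.73), and 0 of the 13 passed without control 2 and 3, with 11 at an unadjusted p under 0.05 (median −1.46). In BxPC-3 0 of 13 passed, none at an unadjusted p under 0.05 (median −0.43), and all 13 changes were negative in both lines. Among 15 regulators of TOP mRNA translation, LARP4 alone passed in CFPAC-1, a share near that of all tested genes (log2 change −0.97, limma adjusted p = 0.0454) and 0 passed in BxPC-3, with 1 at an unadjusted p under 0.05. LARP4 did not pass without control 2 and 3. LARP1 had 48.7, 35.7 and 40.2 FPKM in CFPAC-1 induced and 63.5, 39.1 and 40.0 in CFPAC-1 control libraries. EIF4EBP1, an inhibitor of cap-dependent translation and the highest of these regulators by group mean, had 197.6, 197.9 and 186.0 in induced and 199.5, 35.6 and 34.2 in control libraries, another gene split by control library. Of 8 dedicated chaperones of ribosomal proteins, LTV1 (−1.70) and GRWD1 (−0.87) fell in CFPAC-1 and 0 passed in BxPC-3, with 1 at an unadjusted p under 0.05. Neither passed without control 2 and 3. Of 10 paralogs and fusion genes 8 were tested, and RPL39L, described above, alone passed in CFPAC-1, downward (log2 change −2.71, limma adjusted p = 0.0455). Without control 2 and 3 limma called 0 of the 8, with 0 at an unadjusted p under 0.05. FAU (0.34), which encodes a ribosomal protein fused to a ubiquitin-like protein, RPL36AL (0.41), RPL22L1 (0.30), RPL26L1 (−0.37), RPL7L1 (−0.17) and RPS27L (0.03) did not pass.

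Members were also counted by whether their RefSeq entry had the TOP start. In CFPAC-1, where 31 of the 77 members and 7.85% of all tested genes rose, 16 of the 46 with a run did (median 0.54). So did 5 of the 16 without one (median 0.63) and 10 of the 15 without an entry (median 0.77). Without control 2 and 3 the medians were 0.85, 0.73 and 0.87, with 3, 0 and 0 genes passing. In BxPC-3 the medians were −0.02, 0.01 and 0.02. These groups were not tested against each other.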

How the data were processed

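Per the labels' protocols, RNA was extracted with TRIzol and libraries followed a standard Illumina preparation. FastQC, StringTie and the build GRCh38 appear, without versions, in the submitters' processing notes; these sources give no aligner, annotation or strand setting. The authors deposited a table of log2(FPKM+1) values for 60564 genes in 12 libraries, with no counts, so the depth is unknown and no counting interval can be given. Values were turned back to FPKM for display.

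Genes with at least 1 FPKM in at least 3 libraries (12860) were fitted with limma 3.58.1 in R 4.3.3 on the deposited log2 values, as 4 group means over 12 libraries with 8 residual degrees of freedom and 5 contrasts. P-values were adjusted by Benjamini-Hochberg over all 12860 genes, with a threshold of 0.05. The fit was run on simulated data with independent noise of capped spread, so the larger spreads among CFPAC-1 control libraries were not simulated. A log2 change is on the log2(FPKM+1) scale and understates the change of low genes. Shares were compared by two-sided exact permutation over libraries. Python 3.11.15 with pandas 2.3.3, scipy 1.17.1 and matplotlib 3.10.9 was used.

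Members, gene lists and tests were chosen with earlier results of these data known. Named in each comparison were up to 10 passing members per direction, the 6 highest and 6 lowest, the 5 highest and 5 lowest by level, and a fixed set of well-known members, some of which are not reported here; RPL28, RPL12, the coding-length examples and the neighbours of RPS16 were named after their values were seen. Gene positions are from GENCODE 29, and start sequences from RefSeq on GRCh38.p14.

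Replicate numbers are shared between groups. Over tested genes, deviations from the group means of same-numbered libraries correlated at −0.06, −0.02 and −0.08 between CFPAC-1 induced and control, and at 0.15, 0.11 and 0.05 between BxPC-3 induced and control, so induced and control libraries were treated as unpaired. Between the lines they correlated at 0.29, 0.27 and 0.12 among induced and 0.16, 0.12 and 0.12 among control libraries, which meets the rule for pairing (every pair over 0.1). The contrasts between the lines reported above were still fitted as unpaired. The replicate block, given at the end, is the fit that takes the shared numbers into account. Alternatives were a replicate block, rescaling without mitochondrially encoded genes, quantile normalization, a pseudocount of 0.1, no filter, a mean FPKM of at least 5, a mean-variance trend, each line alone, and leaving libraries out. Libraries 2 and 3 only, sums with pseudogenes, and 2 fits that combined the absence of CFPAC-1 control 2 and 3 with another choice were added after the data were seen.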

Additional observations from a re-analysis of the deposited data

Results flagged for a closer look

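The change from control to induced culture differed between the lines, by the test of the difference itself, for 4 ribosomal protein genes. The BxPC-3 change minus the CFPAC-1 change was −1.89 for RPL13, −1.60 for RPL9, −1.11 for RPL12 and −1.06 for RPL13A on the log2(FPKM+1) scale (limma adjusted p = 0.0352, 0.0473, 0.0369 and 0.0344). For each of the 4, all 3 CFPAC-1 induced libraries lay above all 3 CFPAC-1 control libraries, while the BxPC-3 groups overlapped. None of the 4 passed without CFPAC-1 control 2 and 3. With the replicate number as a block 3 of them passed, and RPL9 did not (limma adjusted p = 0.0675). No member passed after rescaling without mitochondrially encoded genes, after quantile normalization or with a pseudocount of 0.1, and 2 passed with no filter. In the 12 fits that each left out 1 library, RPL13 failed in 9, RPL9 in 10, RPL12 in 8 and RPL13A in 8.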

How the results depend on the processing

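Counts of ribosomal protein genes that passed moved more than medians. They add rises and falls together, and the shares of all tested genes with libraries 2 and 3 only are not given here. In CFPAC-1, 31 passed with all libraries, 12 with each line fitted alone, 3 without CFPAC-1 control 2 and 3, 0 without them and with each line alone, 0 without them after rescaling without mitochondrially encoded genes, and 61 with libraries 2 and 3 only; leaving out single libraries gave 8 to 42. In BxPC-3, 11 passed with libraries 2 and 3 only. For the difference of the changes, 4 passed with all libraries and 0 after rescaling, after quantile normalization, with a pseudocount of 0.1, without CFPAC-1 control 2 and 3, and without them after rescaling; 2 passed with no filter and 50 with libraries 2 and 3 only (median −0.376), and leaving out single libraries gave 0 to 22. Between the lines, libraries 2 and 3 only gave 50 among induced and 54 among control libraries, and leaving out single libraries gave 14 to 30 among induced libraries. Without CFPAC-1 control 2 and 3, the share of summed FPKM differed by 4.18 points in CFPAC-1, by −3.94 points in the difference of the changes and by 2.29 points between the lines in control. The cause of these shifts was not tested.

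Signs changed only for named genes that had not passed with all libraries. In CFPAC-1, without control 2 and 3 (also with each line alone), the log2 change was 0.749 for RPS16, 0.637 for RPLP2 and 0.739 for RPL27A, and with rescaling as well 0.560, 0.447 and 0.554. RPS13 was −0.111 after rescaling, −0.255 after quantile normalization and −0.402 with libraries 2 and 3 only, and RPS12 was −0.101, −0.178 and −0.492. With libraries 2 and 3 only both passed downward (limma adjusted p = 0.00119 for RPS13 and 0.00128 for RPS12). For the difference of the changes, RPS6 was 0.0137 after rescaling, 0.246 after quantile normalization and 0.277 with libraries 2 and 3 only, and RPS3A was −0.212 with libraries 2 and 3 only and −0.562 with pseudogenes added. Without CFPAC-1 control 2 and 3 it was −0.947 for RPS12, −0.746 for RPL27A, −0.623 for RPLP2 and −0.900 for RPS16, and with rescaling as well −0.816, −0.623, −0.494 and −0.772. Between the lines in control the same pair of fits gave 0.971 and 0.899 for RPS16 and 0.135 and 0.0582 for RPS27A.

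Leaving out single libraries gave ranges that crossed 0 for further genes that had not passed. In CFPAC-1 they were −0.630 to 0.00527 for RPLP2, −0.510 to 0.115 for RPL27A, −0.297 to 0.179 for RPS13 and −0.479 to 0.309 for RPS12. In BxPC-3 they were −0.352 to 0.0766 for RPS27, −0.0277 to 0.376 for RPL23, −0.0297 to 0.386 for RPS3A and −0.0346 to 0.334 for RPL7. For the difference of the changes they were −0.256 to 0.295 for RPS6, −0.124 to 0.309 for RPS3A, −0.208 to 0.580 for RPS12 and −0.123 to 0.502 for RPL27A.

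With a replicate block 41 genes passed in CFPAC-1, 0 in BxPC-3, 3 in the difference of the changes, 28 between the lines among induced and 16 among control libraries; the block moved no count by over 1.5 times, and of the named genes only RPL9 in the difference of the changes no longer passed (limma adjusted p = 0.0675). With no counts deposited, the depth behind a value is unknown.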
